A study of Mus musculus with 60 samples.

Results

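The brains of mice kept as a St6galnac2 knockout line were compared with the brains of C57 mice, so the contrast is one of mouse lines and not of the knockout. The line was represented by 6 animals, 3 homozygous knockouts (KO, -/-, animals 9093, 9361 and 9100) and 3 wild types (WT, +/+, animals 9362, 9099 and 9094), with 1 female and 2 males in each genotype. The controls were 3 animals labelled as pure C57 wild type (M3, F2 and F1), whose sex is labelled unknown. Ages, housing and the strain background of the line are not given in the sources used here, so strain, breeding and line cannot be told apart. Of the 60 arrays of the series, which profiled glycan-related genes of mouse tissues on a custom Affymetrix chip, these 9 were chosen by their brain label and selected on a Fut9 value above 6 (log2). All values below are log2 expression values, so a difference of 1 is a 2-fold change. Means carry their SD and differences their SE.

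Brain glycans are built by families of transferases in the Golgi. Gangliosides, sialylated glycolipids, are abundant on neurons, and heparan sulfate and chondroitin sulfate chains on proteoglycans bind growth factors and form the matrix around cells. Laminin is held through O-mannose chains on dystroglycan, and the Lewis x epitope, a fucose on N-acetyllactosamine, marks neural precursors. B4galnt2 encodes the transferase that makes the Sd(a) antigen, and naturally occurring mouse alleles of it are known to differ in whether the gut epithelium or the lining of vessels expresses the gene.

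Upstream sequences are shown for the genes that carry the main results: B4galnt2, which was higher in brain and lower in intestine of the line, Rab7, which was higher in both tissues, and Fut4, which had the smallest unadjusted p-value of all probe sets. They are the 250 bases before the transcript start in RefSeq (build GRCm38.p6, minus strand in each case, 5′ to 3′), and for Rab7 the farther upstream of 2 starts. This reference is of C57 origin and shows no sequence of the line. Capitals mark GGGCGG (a GC box, in 32.7% of 32851 upstream regions of this length), TATAAA (12.4%) and CCAAT (33.8%), searched on both strands with no overlap between them.
B4galnt2, chr11:95914872-95915121: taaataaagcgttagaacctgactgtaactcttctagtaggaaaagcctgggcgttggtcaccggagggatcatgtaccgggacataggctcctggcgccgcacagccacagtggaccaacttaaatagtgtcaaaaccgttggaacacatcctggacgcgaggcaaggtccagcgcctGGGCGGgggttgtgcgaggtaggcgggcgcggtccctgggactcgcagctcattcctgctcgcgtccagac
Rab7, chr6:88045271-88045520: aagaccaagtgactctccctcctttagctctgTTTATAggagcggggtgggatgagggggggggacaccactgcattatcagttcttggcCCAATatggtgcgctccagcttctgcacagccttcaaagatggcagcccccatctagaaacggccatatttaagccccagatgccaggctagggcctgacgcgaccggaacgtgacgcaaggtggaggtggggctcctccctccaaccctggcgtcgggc
Fut4, chr9:14752123-14752372: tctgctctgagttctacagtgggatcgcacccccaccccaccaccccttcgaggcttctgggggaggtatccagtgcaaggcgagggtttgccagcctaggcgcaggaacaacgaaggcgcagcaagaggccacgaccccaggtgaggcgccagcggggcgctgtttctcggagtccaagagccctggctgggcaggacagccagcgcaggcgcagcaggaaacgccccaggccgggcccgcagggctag
The B4galnt2 region holds 1 GGGCGG, the Rab7 region holds 1 TATAAA and 1 CCAAT, and the Fut4 region holds none of these letters. The GC content was 58.4%, 59.2% and 67.6%. Of the 112 genes with a called probe set in brain, 84 have an upstream sequence in the supplied table.

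The tissue label was checked first. Fut9, the fucosyltransferase that makes Lewis x in brain, chose the arrays and is given without a test. It read 9.33, 9.28 and 9.77 in KO animals 9093, 9361 and 9100, 9.81, 9.92 and 9.27 in WT animals 9362, 9099 and 9094, and 8.64, 9.12 and 9.47 in C57 animals M3, F2 and F1. The closest arrays on each side of the limit were C57 M3 at 8.64 and the first brain array of animal 9099 at 3.21, which was left out. Reg3b, an antimicrobial lectin of the gut epithelium, lay between 4.32 and 4.57 in line brains and between 4.61 and 4.76 in C57 brains, against 12.47 to 13.91 in the intestines of these animals. On the 9 brain arrays the intestinal marker was thus at its low level, and Ncan, the neuronal matrix proteoglycan neurocan, read 7.93 to 10.67.

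The 9 brain arrays fell into sets that crossed both the lines and the genotypes. In a principal component analysis the first component held 68.0% of the variance and separated animals 9093, 9094, 9361, M3 and F1 (first set) from 9362, 9099, 9100 and F2 (second set). The second component held 17.5% and separated the line from C57. Between sets 59 genes differed by at least 1 on the log2 scale, against 4 between the lines. Il22, an interleukin, averaged 3.04 in the first set and 7.56 in the second, and Gdf10, a TGF-beta family ligand, 5.99 and 9.15. Ncan went the other way, at 10.47 and 8.37, as did Igfbp4, an insulin-like growth factor binding protein, at 10.09 and 7.76. Array pairs of the same set correlated across genes at 0.990 to 0.997, and pairs of different sets at 0.964 to 0.978. The labels call all 9 arrays brain and name no piece of it, and what separates the sets was not tested. Line differences are therefore also given with the set as a block and within each set. The sets were drawn from these same expression values, by the sign of the first component score. The counts between sets and all p-values with the block thus rest on a grouping taken from the tested data.

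**Figure D1:**
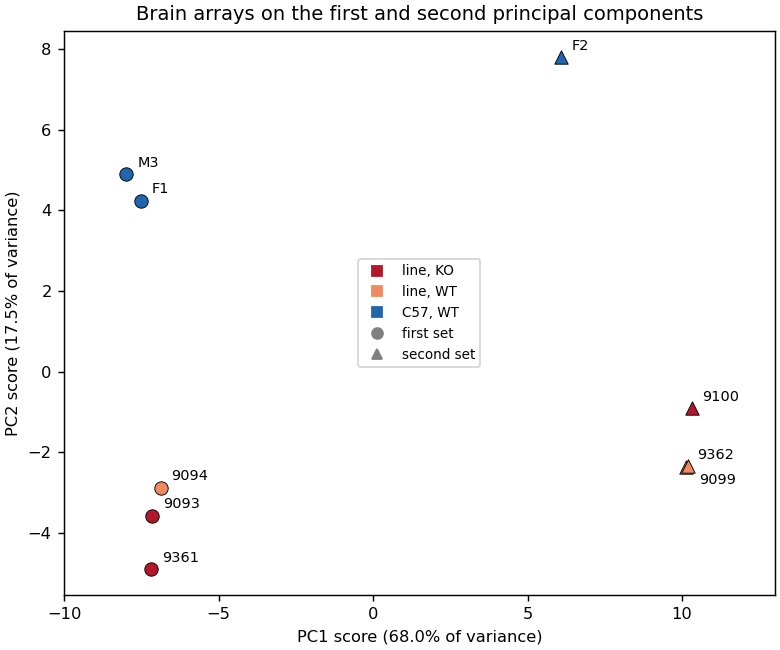
Scores of the 9 brain arrays on the first (x axis) and second (y axis) principal components of the gene values; colour gives line and genotype, shape the set. The first component parts 5 arrays from 4 across line and genotype, and the 3 C57 arrays lie above the 6 line arrays on the second.

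Between the lines, 112 of 962 probe sets that could be named were called by limma at an adjusted p under 0.05 (11.6%), 11 of them higher in the line (1.14%) and 101 lower (10.5%). The values of the line were shifted as a whole: array medians were 5.34 to 5.44 in the line and 5.50 to 5.52 in C57, 79.4% of genes were lower in the line, and the median difference was -0.16. With every array centred on its own median 21 probe sets were called (2.18%), 10 higher (1.04%) and 11 lower (1.14%), and the median difference was -0.04. Of the probe sets called as deposited 20 were also called after centring, 9 higher and 11 lower. Centring raises every difference by nearly the same amount, so that it moves falls towards 0 and rises away from it.

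With the array set as a block 338 probe sets were called (35.1%), 38 higher (3.95%) and 300 lower (31.2%), and all 112 were among them. The median SE was 0.09 with the block and 0.11 without it. As the sets came from the same values, the larger number of calls is no separate support. The block with centring gave 150 (15.6%), of which 65 were higher (6.76%) and 85 lower (8.84%). Within the first set alone 195 were called (20.3%), 35 higher (3.64%) and 160 lower (16.6%). Within the second set, which holds 1 C57 array, 67 were called (6.96%), 3 higher (0.312%) and 64 lower (6.65%), with the lone C57 brain assumed to vary like the others. Every call of the 112 had the same direction in both sets. They also had the same direction when only WT or only KO animals of the line were set against C57, although limma then called 0 in either, with 245 and 196 at an unadjusted p under 0.05. The 112 were chosen on these same arrays, and in 111 of them the line and C57 did not overlap. Both genotypes were also set against the same 3 C57 animals. The shared direction therefore followed from the choice and is no separate support. With the set as a block the WT animals alone gave 97 calls, 48 of them among the 112, and the KO animals alone 219, 90 of them among the 112. The number of calls rests on single animals, the controls F1 and M3 above all: it was 29 without F1 and 40 without M3, but 85 without F2. It was 53 without 9362, 65 without 9093 and 68 without 9361, and 76 to 96 without each of the other line animals. Of the 78 called genes named here by the rule stated under processing, 14 were called without any 1 animal: Acvr1, B4galnt2, Bgn, Clec2d, Fgfr3, Fut4, Il10ra, Jag1, Klra9, Papss1, Rab7, Rrn3, Slc35b4 and Tgfbr2.

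No probe set separated knockout from wild type brains of the line at the threshold. The limma test of KO minus WT called 0 of 962, also with the set as a block. Its smallest adjusted p was 0.970, and 13 probe sets (7 higher and 6 lower in KO) had an unadjusted p below 0.05. St6galnac2 itself, the sialyltransferase the line was made to lack, read 5.49, 5.57 and 5.71 in the KO brains of 9093, 9361 and 9100 and 5.67, 5.68 and 5.71 in the WT brains of 9362, 9099 and 9094. The C57 brains read 5.71 (M3), 6.04 (F2) and 5.90 (F1). KO and WT values thus overlapped, and all 6 line brains lay below the lowest C57 brain, the highest of them by less than the second decimal. The line difference was -0.25 ± 0.09 and not called (adjusted p = 0.0850 by limma), it was called with the set as a block (-0.27 ± 0.08, adjusted p = 0.0211), and it was -0.12 after centring (adjusted p = 0.434). In intestine, where the gene is expressed at a higher level, the line averaged 8.72 ± 0.05 (n = 4) and C57, labelled small intestine, 9.17 ± 0.68 (n = 3). Where the probe set lies relative to the deleted part of the gene is not known here, so these readings check nothing about the genotype.

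The measured genes nearest to St6galnac2 on chromosome 11 are given next. On one side Galk1 (galactokinase) differed by -0.09 ± 0.13, Cog1 (a subunit of a Golgi tethering complex) by -0.38 ± 0.07 (adjusted p = 0.0177) and Pecam1 (an endothelial adhesion molecule) by -0.49 ± 0.11 (adjusted p = 0.0295). On the other side St6galnac1, the neighbouring sialyltransferase, differed by -0.12 ± 0.06, Mgat5b by -0.55 ± 0.49 and Gaa, the lysosomal glucosidase, by -0.27 ± 0.18, none of them called. B4galnt2 lies on the same chromosome with 19 measured genes in between. Of 84 measured genes on chromosome 11, 15 were called (17.9%), 2 of them higher, against 12.1% of all 908 genes. After centring 2 of the 84 were called, against 2.31% of all genes, and with the set as a block 34 of the 84, against 321 of 908 genes. The share on chromosome 11 was thus above the background as deposited and slightly above it with the block. As deposited, chromosomes 12 (5 of 17, 29.4%) and 18 (4 of 22, 18.2%) had larger shares, so a high share was not particular to chromosome 11. After centring the share on chromosome 11 was near the background and rests on 2 calls.

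Only 3 probe sets were called with a difference of at least 1, and all 3 were higher in the line. Rab7 and B4galnt2, described next, were among them, and also held with centring and with the set as a block. Gfra2 (a receptor of the GDNF family, picked after its value was seen) differed by -1.16 but was not called (adjusted p = 0.129), and it differed between the sets by -1.45.

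Rab7 encodes the GTPase of late endosomes that leads cargo to lysosomes. KO brains read 10.22, 10.32 and 9.52, WT brains 10.13, 10.33 and 9.86, and C57 brains 8.50, 8.67 and 9.05, in the order of animals given for Fut9. The lowest line brain (9100) was above the highest C57 brain (F1), with no overlap. The means were 10.06 ± 0.32 (n = 6) and 8.74 ± 0.28 (n = 3), a difference of 1.32 ± 0.20 (2.49-fold, adjusted p = 0.00845 by limma), and 1.35 and 1.32 in the first and second sets.

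B4galnt2 was low in all brains but separated the lines. KO brains read 4.39, 4.46 and 5.13, WT brains 4.80, 4.95 and 4.51, and C57 brains 3.67, 3.41 and 3.63. The C57 brains lay below the percentile 25 of all brain values (4.09), and the line brains lay above it but under the median (5.42). The means were 4.71 ± 0.30 and 3.57 ± 0.14, a difference of 1.13 ± 0.17 (2.20-fold, adjusted p = 0.00845 by limma). It was 0.80 in the first set and 1.55 in the second. The deposited values carry no detection limit. In animals of the series that lack B4galnt1 and B4galnt2 the probe set read 3.48 to 3.92 in thymus and 3.64 to 4.15 in kidney. It read 4.38 to 4.75 in their testes, where some line brains lay within the range, and 3.74 to 8.53 in their mammary gland. Where the probe set lies relative to the deleted part is not known here. Whether the brain readings rise above background was not tested.

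**Figure D2:**
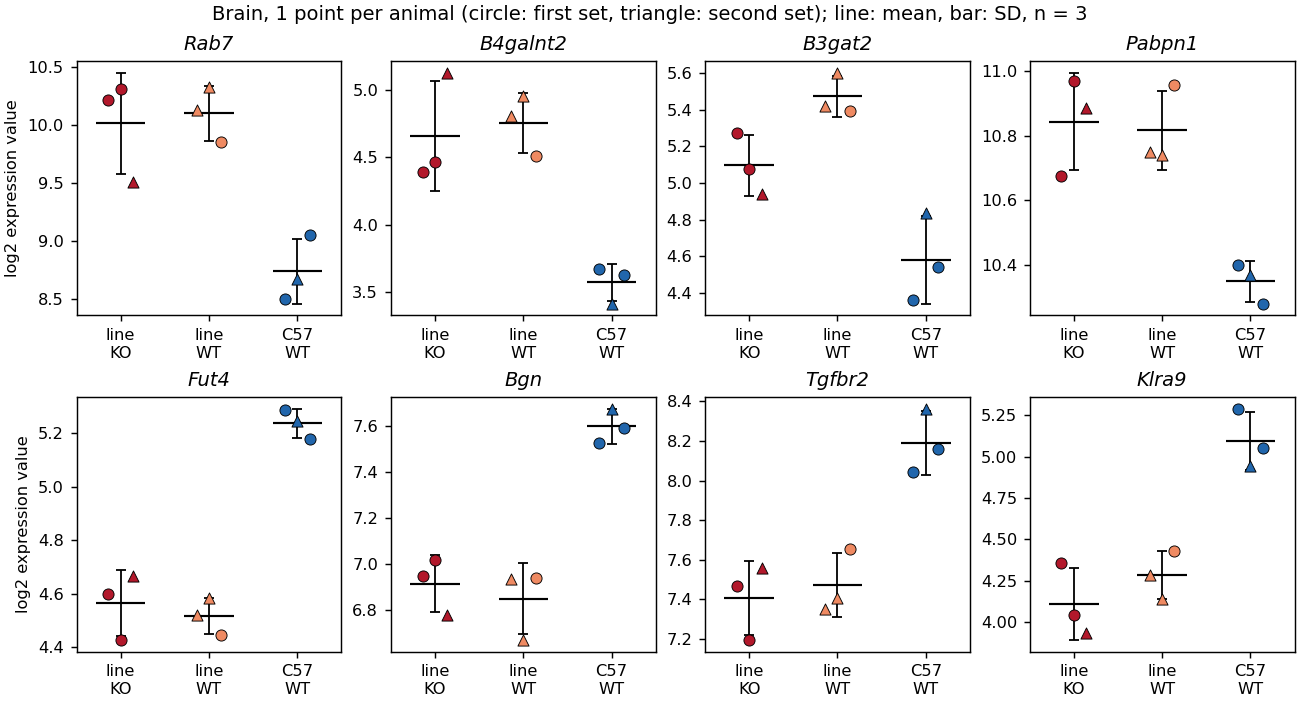
Log2 expression (y axis, scaled to each gene) in brain of 3 line KO, 3 line WT and 3 C57 animals for Rab7, B4galnt2, B3gat2 and Pabpn1, which were higher in the line, and Fut4, Bgn, Tgfbr2 and Klra9, which were lower. Points are animals, horizontal lines means, bars SD; KO and WT overlap in each panel except that of B3gat2, where KO animals read 4.94 to 5.27 and WT animals 5.39 to 5.60, and none of the line animals overlaps C57.

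The other 8 called rises were below 2-fold. B3gat2, a glucuronyltransferase of the HNK-1 epitope, rose by 0.71 ± 0.16 (adjusted p = 0.0271), with line brains at 4.94 to 5.60 and C57 brains at 4.36 to 4.84. Vcan, the chondroitin sulfate proteoglycan versican, rose by 0.58 ± 0.16 (adjusted p = 0.0498), at 6.37 to 7.08 against 5.90 to 6.33. Slc35d1, the transporter that brings UDP-glucuronic acid and UDP-N-acetylgalactosamine into the endoplasmic reticulum, rose by 0.38 ± 0.09 (adjusted p = 0.0341). Pabpn1, a nuclear poly(A)-binding protein, rose by 0.48 ± 0.08 (adjusted p = 0.0118), at 10.68 to 10.97 against 10.28 to 10.40. Aup1, a lipid droplet and degradation factor, rose by 0.30 ± 0.06 and Mtif2, a mitochondrial translation factor, by 0.21 ± 0.06 (adjusted p = 0.0177 and 0.0440). These 6 were also called after centring, which moves rises away from 0. With each of the 9 animals left out in turn, Pabpn1 was still called in 8 fits, Aup1 in 7 and B3gat2 in 5. Slc35d1 was still called in 2, and Vcan and Mtif2 in 1 each.

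Wars, the tryptophanyl-tRNA synthetase, rose by 0.72 ± 0.19 and Cxcr2, a neutrophil chemokine receptor, by 0.70 ± 0.18 (adjusted p = 0.0415 each), and by 0.84 and 0.82 after centring, where both missed the threshold (adjusted p = 0.0602 each). With the set as a block and centring both were called (adjusted p = 0.0126 and 0.0110). The Cxcr2 probe set carries a suffix for probes shared with other transcripts, and the gene's other probe set differed by 0.01 ± 0.08 (adjusted p = 0.913). Line and C57 values did not overlap for any of the 11 rises. Across all genes 201 of 908 did not overlap (22.1%), 15 with the line above (1.65%) and 186 below (20.5%). Of the 112 called probe sets only Fgf10 overlapped.

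**Figure D3:**
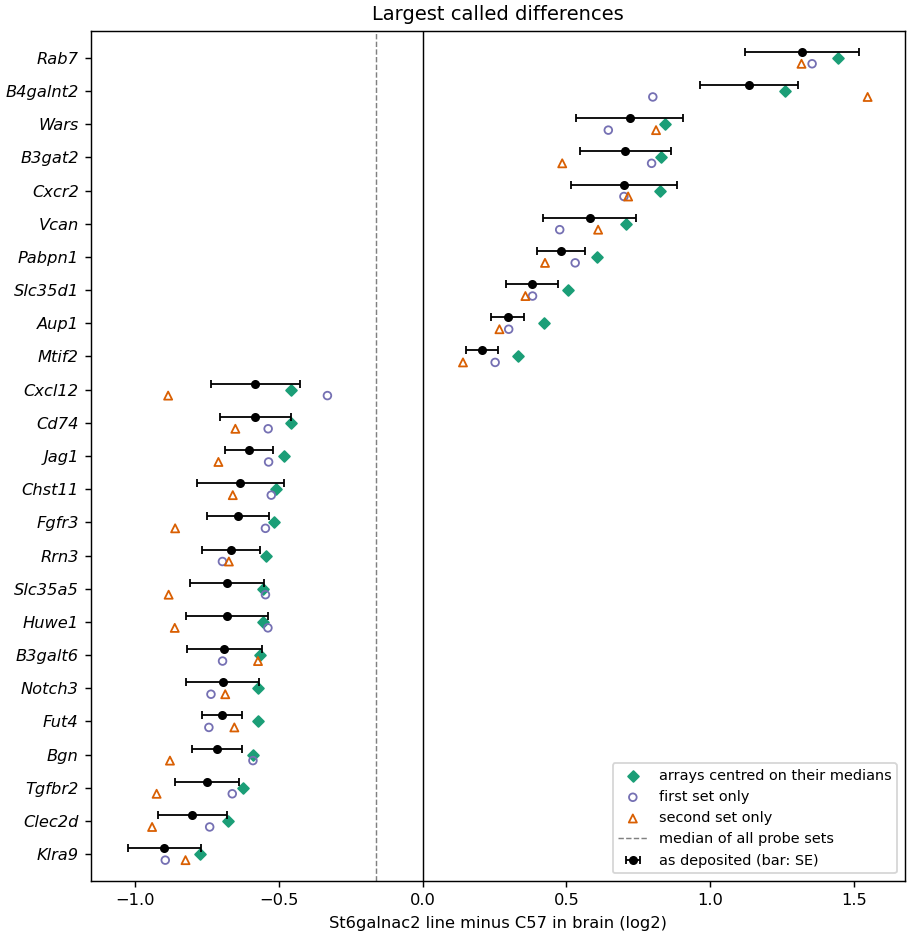
Difference of the line from C57 in brain (x axis, log2) for 10 called rises and the 15 largest called falls. Black points with SE bars are the values as deposited, diamonds the centred values, open circles and triangles the first and second sets alone, and the dashed line the median of all probe sets (-0.16). Each gene keeps its sign in all 4, but the genes were picked on these same arrays, so this is no separate support.

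The falls were smaller, from -0.24 to -0.90 with a median of -0.40. Fut4, the other brain fucosyltransferase that can make Lewis x, had the smallest p: it read 4.60, 4.43 and 4.67 in KO brains, 4.52, 4.58 and 4.45 in WT brains and 5.29, 5.24 and 5.18 in C57 brains. No line brain came near a C57 brain. The difference was -0.70 ± 0.07 (adjusted p = 0.00337 by limma) and -0.57 after centring (adjusted p = 0.00602). Its probe set is marked as sharing probes, and 2 further probe sets of the gene, at lower levels, differed by -0.28 ± 0.12 and -0.17 ± 0.11 (adjusted p = 0.136 and 0.304).

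Bgn, the small proteoglycan biglycan of connective tissue and vessels, averaged 6.88 ± 0.13 in the line and 7.60 ± 0.07 in C57, a fall of -0.71 ± 0.09 (adjusted p = 0.00551). Tgfbr2, the type II TGF-beta receptor, averaged 7.44 ± 0.16 and 8.19 ± 0.16 (-0.75 ± 0.11, adjusted p = 0.00845), whereas the probe set of another transcript of the gene differed by -0.12 ± 0.09 (adjusted p = 0.366). Acvr1, a BMP and activin receptor, fell by -0.57 ± 0.09 (adjusted p = 0.0117). Both receptors belong to the TGF-beta and BMP list, in which they were the only called members of 28 measured, as deposited and after centring. The median of that list was -0.23, against -0.16 over all genes. Of all 908 genes 12.1% were called as deposited (10.9% lower), a larger share than 2 of 28, and 2.31% after centring (1.21% lower). The counts in the Notch, FGF and Wnt lists below are to be read against the same shares.

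In the Notch list Notch3, the receptor of vascular smooth muscle, and Jag1, a ligand, fell by -0.70 ± 0.13 and -0.60 ± 0.08 (adjusted p = 0.0140 and 0.00845), again the only 2 called of 13 on both scales. Notch3 read 4.93 to 5.48 in the line and 5.75 to 6.12 in C57. In the FGF list 6 of 26 fell: the receptor Fgfr3, and the ligands Fgf6, Fgf8, Fgf10 and Fgf17 with the intracellular Fgf14. Fgfr3, which astrocytes and their precursors express, had the smallest p, with every line brain at or below 9.32 and every C57 brain at or above 9.62 (-0.64 ± 0.11, adjusted p = 0.0117), and the only one called after centring. Fgf6 and Fgf8 averaged 3.39 and 3.63 in line brains, below the percentile 25, and their falls of -0.27 and -0.29 were -0.15 and -0.17 after centring. The call of Fgf14 was lost whichever animal was left out. The other Fgf14 probe set differed by -0.18 ± 0.31 (adjusted p = 0.705 by limma). Among Wnt ligands and frizzled receptors Fzd6 (-0.54 ± 0.11) and Wnt10b (-0.32 ± 0.07) were called of 28, and neither after centring.

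Further falls of this size lay outside these lists. Rrn3, an initiation factor of RNA polymerase I, fell by -0.67 ± 0.10 (adjusted p = 0.00845) and Hp1bp3, a heterochromatin-binding protein, by -0.58 ± 0.06 (adjusted p = 0.00337), both also after centring. Huwe1, a ubiquitin ligase, fell by -0.68 ± 0.14 (adjusted p = 0.0208) and was not called after centring (adjusted p = 0.0758). Hp1bp3, which was picked after its value was seen, was narrow in each group, at 10.51 to 10.73 in the line and 11.15 to 11.17 in C57.

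The gene lists were read against the background of 110 called genes of 908 (12.1%), 11 higher (1.21%) and 99 lower (10.9%), with a median of -0.16. With the set as a block 321 genes were called (35.4%), 37 higher (4.07%) and 284 lower (31.3%). After centring 21 genes were called (2.31%), 10 higher (1.10%) and 11 lower (1.21%), so most list members below are called only on the deposited scale. Of 47 lists 36 held at least 1 called gene, and 15 did after centring.

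The O-mannose and dystroglycan list held calls in both directions, 2 higher and 3 lower of 11. Beside B3gat2, which rose, Pomgnt1 (the GlcNAc transferase of the pathway) fell by -0.46 ± 0.09, Dag1 (dystroglycan itself) by -0.45 ± 0.09 and Pomt2 (a protein O-mannosyltransferase) by -0.42 ± 0.11, with adjusted p of 0.0182, 0.0208 and 0.0420. Dag1 read 8.84 to 8.96 in line brains and 9.10 to 9.57 in C57 brains. After centring the 2 rises were called and the falls were not, at -0.34, -0.33 and -0.29.

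Of 24 heparan sulfate genes 6 fell (against 10.9% of all genes), none rose and 18 were not called. The list median was -0.22, and 0 were called after centring, where the median was -0.10. With the set as a block 12 were lower (against 31.3% of all genes), and with the block and centring 4 (against 8.81%). The members that fell span the pathway: Ext2 (chain polymerisation, -0.34 ± 0.09), Ndst1 (N-deacetylation and sulfation, -0.50 ± 0.11), Glce (the epimerase, -0.44 ± 0.10), and the sulfotransferases Hs2st1 (-0.54 ± 0.09), Hs6st1 (-0.34 ± 0.08) and Hs3st3a1 (-0.25 ± 0.07). Hs2st1 had the smallest p (adjusted p = 0.0118), with 6.77 to 7.17 in the line and 7.42 to 7.62 in C57. With each of the 9 animals left out in turn, Hs2st1 was still called in 8 fits, Ndst1 in 6 and Glce in 3. Hs6st1 was still called in 2, Ext2 in 1 and Hs3st3a1 in 0. Of the core proteins of heparan sulfate, glypicans and syndecans, Sdc2 fell by -0.39 ± 0.10, 1 of 10.

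The list of chondroitin sulfate and linkage-region genes gave 1 rise and 3 falls of 19. The rise was B3gat2, the HNK-1 enzyme named above, which is also counted in the O-mannose list. B3galt6, which adds the second galactose of the linkage region shared with heparan sulfate, fell by -0.69 ± 0.13 (adjusted p = 0.0170), Chst11, a 4-O-sulfotransferase, by -0.63 ± 0.15 (adjusted p = 0.0341), and Chsy1, a chain synthase, by -0.57 ± 0.14 (adjusted p = 0.0344). None of the 3 was called after centring and all 3 were with the set as a block and centring. Among lecticans and neural matrix genes Vcan rose, 1 of 7. Has1, a hyaluronan synthase, fell by -0.30 ± 0.06, 1 of 6. Of 23 genes of sugar nucleotide and sulfate donor synthesis 3 fell, and 0 were called after centring: Papss1, which makes the sulfate donor (-0.51 ± 0.09), Gfpt2 (-0.52 ± 0.13) and Ugp2 (-0.41 ± 0.10). Of nucleotide sugar transporters Slc35b4, Slc35a5 and Slc35c1 fell and Slc35d1 rose, 4 of 18, with Slc35a5 lowest at -0.68 ± 0.13.

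Genes for the sialylated and fucosylated ends of glycans are given next. In ganglioside synthesis 3 of 17 fell: B4galt6 and B4galt5, the lactosylceramide synthases, by -0.45 ± 0.10 and -0.32 ± 0.08, and A4galt, which leads to globosides, by -0.35 ± 0.07. B4galt6 read 8.76 to 9.14 in line brains and 9.32 to 9.46 in C57. Of 6 alpha-2,8- and 6 alpha-2,3-sialyltransferases none was called, with St8sia3, a sialyltransferase of brain, at -0.55 ± 0.21 (adjusted p = 0.116) and St3gal1 at -0.74 ± 0.23 (adjusted p = 0.0625). With the set as a block both were (adjusted p = 0.00868 and 0.000892). Of 7 alpha-2,6-sialyltransferases St6gal1, the enzyme of N-glycans, fell by -0.40 ± 0.10 (adjusted p = 0.0341).

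Of 10 fucosyltransferases Fut4 and Fut7 fell, the latter by -0.36 ± 0.07 (adjusted p = 0.0177). B4galnt2 was the only call of 8 beta-GalNAc transferases. On proteins Galnt2 fell by -0.43 ± 0.10, 1 of 19 polypeptide GalNAc transferases, B3gnt6 by -0.31 ± 0.06, 1 of 7 core enzymes, and Mgat2 by -0.33 ± 0.09, 1 of 14 N-glycan genes. B3galt6, B4galt6 and B4galt5 were the called members of 20 chain extension genes. Except for Fut4 and B4galnt2 none of these was called after centring.

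Beside the sialyltransferase and cell marker lists given elsewhere, the lists without a call were myelin galactolipids (smallest p Smpd1, -0.27 ± 0.08, adjusted p = 0.0623), siglecs (Siglec15, -0.18 ± 0.06, 0.0845), the insulin-like growth factor axis (Igf1, -0.25 ± 0.08, 0.0603), sialic acid metabolism (Gne, -0.25 ± 0.09, 0.0902), glucuronosyltransferases and sulfotransferases (Sult1d1, -0.17 ± 0.07, 0.141) and the housekeeping gene Gusb (-0.22 ± 0.08, 0.0911). Lysosomal genes fell in 3 of 23 cases, among them the sulfamidase Sgsh (-0.42 ± 0.10) and the protective protein Ctsa (-0.39 ± 0.10). None of these was called after centring.

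**Figure D4:**
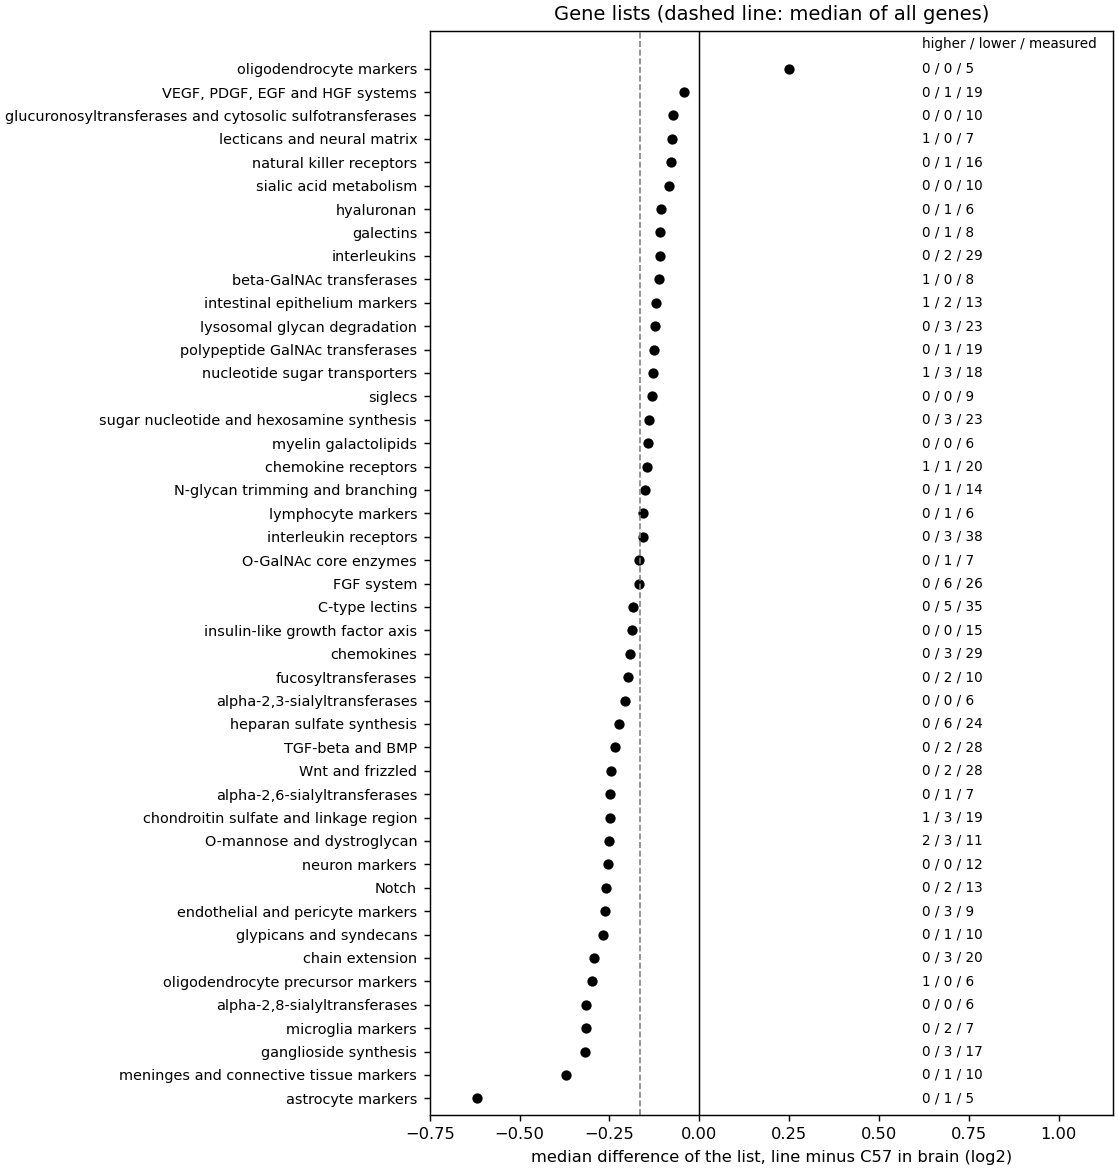
Median difference of each gene list with at least 5 measured genes (x axis, log2, line minus C57 in brain), with the numbers of its genes called higher, called lower and measured at the right. Most medians lie near the median of all genes (dashed, -0.16); astrocyte markers are lowest at -0.62 and oligodendrocyte markers highest at 0.25.

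Lectin and immune genes were called mainly as falls, as were all genes (10.9% lower and 1.21% higher), so the direction is not particular to them. Klra9, an inhibitory receptor of the Ly49 family on natural killer cells, had the largest fall, at 4.35, 4.05 and 3.93 in KO brains, 4.28, 4.14 and 4.43 in WT brains, and 5.29, 4.94 and 5.05 in C57 brains. The groups were apart, at -0.90 ± 0.13 (adjusted p = 0.00845), but Ly49 genes are close copies of each other and the probe set is marked as shared, so which of them it read is uncertain. Clec2d, a ligand of a natural killer receptor and also on chromosome 6, fell by -0.80 ± 0.12 (adjusted p = 0.00845), at 4.46 to 4.92 against 5.38 to 5.69. Both were called after centring. Klra9 was the only call of 16 natural killer receptors.

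Of 35 C-type lectins 5 fell: Clec2d, the mannose receptors Mrc1 (-0.41 ± 0.11) and Mrc2 (-0.48 ± 0.10), Clec5a (-0.29 ± 0.07) and Cd209d (-0.30 ± 0.08). Of 8 galectins Lgals12 fell by -0.36 ± 0.08. Cd74, the invariant chain of MHC class II, read 6.47 to 7.07 in the line and 7.22 to 7.33 in C57 (-0.58 ± 0.12, adjusted p = 0.0227). Of 29 chemokines Cxcl12 (-0.58 ± 0.15), Pf4 (-0.52 ± 0.10) and Cxcl9 (-0.37 ± 0.10) fell. The other Cxcl12 probe set differed by -0.46 ± 0.16 and was not called (adjusted p = 0.0845 by limma). Cxcl12 is made by vessels and meninges, and Pf4 by platelets and border macrophages.

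Of 20 chemokine receptors Cxcr2 rose and Ccr7 fell (-0.33 ± 0.07). Of 29 interleukins Il27 and Il13 fell, and of 38 interleukin receptors Il10ra (-0.53 ± 0.09, adjusted p = 0.0117), Il9r (-0.38 ± 0.08) and Il18rap (-0.30 ± 0.08). Of these only Clec2d was called after centring. Line brains averaged below the percentile 25 of all brain values (4.09) for Clec5a (2.70), Cxcl9 (3.19), Il18rap (3.66), Lgals12 (3.70), Il9r (3.72) and Ccr7 (3.83). Of the 112 called probe sets 34 averaged under the brain median (30.4%), against 410 of the 962 tested (42.6%).

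Markers of brain cell types are given as measured values, and their part in the gene differences was not tested. In bulk tissue fewer cells of a type and less RNA per cell cannot be told apart. Of 12 measured neuron markers 0 were called, with a mean level of 8.31 to 8.79 in line brains and 8.64 to 8.89 in C57 brains. Of 5 astrocyte markers Fgfr3 was called, and the mean level was 7.18 to 8.19 against 7.95 to 8.21. The list median of -0.62 was -0.09 within the first set and -0.86 within the second, and neither Gfap nor Aqp4 is measured among the named probe sets. Oligodendrocyte markers had a median of 0.25, which was 0.27 in the first set and -0.05 in the second, with 0 of 5 called, and Gal3st1, which makes sulfatide, at 0.25 ± 0.20. Of 6 precursor markers Vcan rose.

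Microglia markers gave 2 falls of 7, Il10ra and Clec5a, at a mean level of 5.27 to 5.99 against 5.69 to 6.06. Clec5a itself read 2.61 to 2.78 in the line and 2.88 to 3.09 in C57, below the percentile 25 of all brain values (4.09). The mean level of endothelial and pericyte markers was below C57 in every line brain, as it was for 19 of the 47 lists on the deposited scale, at 4.93 to 5.08 against 5.18 to 5.32, with 3 falls of 9: Pecam1 (-0.49 ± 0.11), Pdgfrb (-0.38 ± 0.10) and the angiopoietin Angpt2 (-0.26 ± 0.07), 0 of them called after centring. Meningeal and connective tissue markers were also apart, at 6.82 to 7.41 against 7.55 to 7.63, with Bgn called of 10. Their medians were -0.26 and -0.37 as deposited and -0.14 and -0.25 after centring. Of 6 lymphocyte markers 1 fell, of 3 choroid plexus markers none was called, and of 13 intestinal epithelium markers B4galnt2 rose while B3gnt6 and Reg3b fell.

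The intestines were compared for 4 of the line animals (9361, 9362, 9094 and 9093) and the same 3 C57 animals. The line arrays are labelled intestine and the C57 arrays small intestine, so gut region and line cannot be told apart in any intestinal difference or in any test of brain against intestine below. limma called 120 probe sets (12.5%), 8 higher (0.832%) and 112 lower (11.6%), with a median difference of -0.27, and 27 after centring (2.81%), 9 higher (0.936%) and 18 lower (1.87%). With the left-out intestine array of 9099 added it called 0. The count was 1 without 9362, 3 without 9093 and 13 without 9094, 42 without F2, 64 without 9361, 94 without M3 and 269 without F1. The animals are shared with the brain comparison, so values are given side by side and the difference was tested as an interaction. Line difference in brain minus that in intestine was called for 12 of 962 probe sets (1.25%), 7 above 0 (0.728%) and 5 below (0.520%), and for 29 with a term for the brain set (3.01%). Without 9362 it was called for 7, and without F1 for 19.

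B4galnt2 led that test. In intestine, where its product decorates epithelial glycans, the line read 7.40 (9361), 7.38 (9362), 7.82 (9094) and 7.29 (9093), and C57 read 12.43 (M3), 11.35 (F2) and 11.53 (F1). The line was far below C57 there, by -4.29 ± 0.27 (adjusted p = 0.000393 by limma), whereas it was above C57 in brain. The brain difference exceeded the intestinal one by 5.43 ± 0.33 (adjusted p = 9.24e-08) between arrays whose gut labels differ. KO and WT animals of the line overlapped in both tissues. In other tissues of the line the gene was low as well, at 3.82 to 4.28 in thyroid and 4.34 to 4.82 in lymph node over KO and WT animals, for which no C57 arrays of those tissues were analysed here.

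Rab7 was higher in the line in both tissues. The intestines, in the same order of animals, read 9.01, 9.55, 9.51 and 9.50 in the line, close together, and 5.69, 6.98 and 8.51 in C57, spread over a wide range (2.33 ± 0.57, adjusted p = 0.0411). The groups did not overlap, and the interaction was not called (-1.01 ± 0.62, adjusted p = 0.513).

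**Figure D5:**
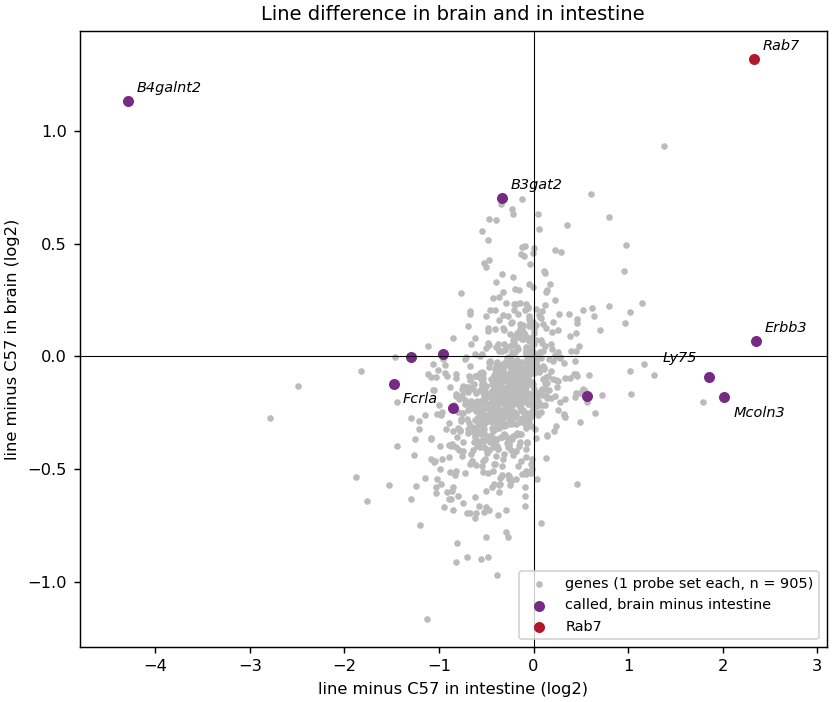
Line minus C57 in brain (y axis) against the same in intestine (x axis), both in log2, for 905 genes. Called genes of the brain minus intestine contrast are purple; B4galnt2 stands alone at 1.13 in brain and -4.29 in intestine, and Rab7 is higher in the line in both. The C57 animals are the same in both tissues, so no correlation is given.

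B3gat2 was the other gene that rose in brain and differed between tissues. Its intestinal difference was -0.34 ± 0.14 (not called, adjusted p = 0.123), at readings of 3.14 to 3.73, and the interaction was 1.04 ± 0.22 (adjusted p = 0.0308). The remaining named genes of this contrast, except Slc35f2, were called in intestine and not in brain. Ly75, a dendritic cell lectin, Erbb3, a receptor tyrosine kinase, and Mcoln3, a lysosomal channel, were higher in line intestine by 1.86 ± 0.26, 2.35 ± 0.35 and 2.02 ± 0.35, and in brain they differed by -0.09, 0.07 and -0.18, none called. Fcrla, a B cell protein, the B cell chemokine Cxcl13, the tyrosine sulfotransferase Tpst1 and the corepressor Ctbp1 were lower there by -1.48, -1.30, -0.95 and -0.85, against -0.12, 0.00, 0.01 and -0.23 in brain. Slc35f2 differed by 0.56 in intestine and -0.17 in brain, called in neither (adjusted p = 0.0573 and 0.0813 by limma). The other 2 calls of the contrast were Muc4 and a further probe set of Fut4.

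Several genes that fell in brain had larger differences in intestine. Fgfr3 differed by -0.64 in brain and -1.76 ± 0.24 in intestine, Chsy1 by -0.57 and -1.53 ± 0.25, St6gal1 by -0.40 and -1.45 ± 0.23, Tgfbr2 by -0.75 and -1.20 ± 0.21, and Cxcl12 by -0.58 and -1.04 ± 0.16, each called in intestine. Their interaction tests missed the threshold, with Fgfr3 and St6gal1 closest (adjusted p = 0.0519 each). Fut4 fell by nearly the same amount in both tissues (-0.67 ± 0.19 in intestine, adjusted p = 0.0573), although its further probe sets fell by -0.97 and -2.07 there. Notch3 and Bgn differed by -0.70 ± 0.19 and -0.61 ± 0.16 in intestine (adjusted p = 0.0491 each). Dag1 and Ndst1, lower in brain, differed by -0.01 ± 0.32 and -0.01 ± 0.24 in intestine, which the test of the difference did not separate from brain (adjusted p = 0.613 and 0.452).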

How the data were processed

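Expression was analysed on the log2 scale, as deposited by the authors. RMA, an array background correction, normalization and summary method, is named in the submitters' processing notes, without a version. Of 1246 probe sets 962 could be named through RefSeq accessions and a gene table of build GRCm38.p6, giving 908 genes; 284 unnamed probe sets were left out. A gene was read from its probe set with the highest mean over the 9 brain arrays. limma 3.58.1 in R 4.3.3 (lmFit and eBayes) compared 6 line brains with 3 C57 brains, with Benjamini-Hochberg adjustment over all 962, called at an adjusted p under 0.05. The test was tried on simulated data. Depth does not apply to arrays, and their number limits precision; nothing says that litters or extractions were separate.

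Alternatives were array median centring, quantile normalization, the array set as a block, filters on low values, probe set choice, 1 sex or genotype, and each animal left out. The members and gene lists were chosen with earlier results of these data known. Named genes were St6galnac2 and its neighbours, the 15 largest rises and 15 largest falls, the 10 smallest p of the brain minus intestine contrast, and up to 6 called members of each list. Animal numbers tie brain to intestine, so animal was a random block in that contrast (estimated correlation -0.03). The 2 arrays of animal 9099 whose Fut9 value goes against their tissue label were left out. For 3 of the genes this rule names no result is reported here.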

Additional observations from a re-analysis of the deposited data

Results flagged for a closer look

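In 3 genes 1 line brain lay apart from the other 5 by Dixon's criterion, which chance meets in about 1 in 20 groups. The number of genes looked at is not given here, so the 3 cannot be set against that rate. Animal 9099 read 7.32 for Mtif2 and 5.15 for Il10ra, and animal 9362 read 9.94 for Papss1.

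The line difference in brain departed from that in intestine, by limma's interaction test, for 10 genes with gut region and line not separable by the labels. Their values are given here as the brain difference minus the intestinal one. It was above 0 for B4galnt2 (5.43), Fcrla (1.36), Cxcl13 (1.30), B3gat2 (1.04), Tpst1 (0.96) and Ctbp1 (0.62). It was below 0 for Erbb3 (-2.28), Mcoln3 (-2.20), Ly75 (-1.95) and Slc35f2 (-0.73).

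Outside the arrays compared, the intestine-labelled array of animal 9099 read 9.74 for Fut9, within the range of the brain arrays. Among probe sets without a gene name 40 were called in brain when all 1246 were tested.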

How the results depend on the processing

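The count of 112 probe sets called in brain was 21 after array median centring, 37 after quantile normalization, 338 with the array set as a block, 195 in the first set, 67 in the second, 68 with males of the line only, 68 among probe sets at or above the median level, and 175 with all probe sets tested. It was 0 with WT, KO or female animals of the line only and 0 with both brain arrays of 9099 averaged, and 219 with KO animals and the set as a block. In 1 fit with intestine it was 28 with animal as a replicate block and 29 without the replicate block. Leaving out 1 animal gave 29 to 96. The 3 calls past 2-fold became 0 with WT or KO animals only. St6galnac2 passed the threshold with the set as a block (-0.27) and with KO animals and that block (-0.30). The cause of these shifts was not tested, beyond the fewer samples of the subsets.

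Intestine's 120 calls became 27 after centring, 0 with the array of 9099, and 1 to 269 with 1 animal left out. The 12 calls of brain minus intestine became 4 with WT animals only, 29 with a term for the set, and 7 to 19 with 1 animal left out. Without the replicate block they were 16. The 15 calls on chromosome 11 became 2 after centring and 34 with the set as a block. Lists with a call went from 36 to 15 after centring and to 0 with WT animals only. Reg3b turned to 0.48 with both brain arrays of 9099 averaged.

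With 3 C57 arrays, 1 of them in the second set, the median SE of a brain difference was 0.11, so small falls rest on few controls.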

Other observations

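The arrays of animal 9099 that the Fut9 limit left out read as follows. The array labelled brain read 3.21 for Fut9, 13.5 for Reg3b, 7.27 for B4galnt2, 9.24 for Rab7, 7.44 for Fut4 and 8.49 for St6galnac2. The array labelled intestine read 9.74 for Fut9, 4.46 for Reg3b, 4.93 for B4galnt2, 10.56 for Rab7, 4.83 for Fut4 and 5.67 for St6galnac2. Leaving aside Fut9, by which the arrays were left out, the first lies nearer to the intestine values of the line on the other 5 genes, and the second nearer to its brain values.

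Galnt7, which starts and extends O-GalNAc glycans, and Uxs1, which makes UDP-xylose for proteoglycan linkage, were picked after their values were seen. Galnt7 differed by 0.93 without a call (adjusted p = 0.160 by limma) and by 0.73 ± 0.09 with the array set as a block (adjusted p = 0.000685). Uxs1 differed by 0.62 (adjusted p = 0.0509), and by 0.69 with the block (adjusted p = 0.00119).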
